A study of Mus musculus with 2 samples.

Results

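The genes described here are 34 regulators of the cell cycle: cyclins, cyclin-dependent kinases (Cdks), Cdc25 phosphatases, Cdk inhibitors, E2F factors and pocket proteins of the Rb family. They were chosen by name, out of 21779 protein-coding genes, with earlier results of these data known. A gene was counted as having a STAT5 peak when a peak midpoint fell in the gene itself or in the 20 kb on either side. STAT5 is a DNA-binding protein switched on by cytokine receptors, among them that of IL7, and its binding was measured by ChIP-seq, the sequencing of chromatin fragments that an antibody pulls down. The cells were labelled as a B cell progenitor leukemia from the lymph nodes of a C57BL/6 mouse that carried Stat5b-CA, a constitutively active Stat5b, and was Blnk+/-. Murine IL7 was given to all cells at 10 ng/mL, and they were fixed after 30 minutes. The samples were 1 library precipitated with the C-17 antibody to STAT5 (sc-835) and 1 input library without precipitation, which shared genotype, tissue and treatment. For the age and sex of the mouse, the promoter behind the transgene and any sorting of the lymph node cells, the sources used here give nothing.

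A single list of 5908 STAT5 peaks carried the values. The median width was 295 bp, in a range of 193 to 3660 bp. With 1 library there was no spread between animals, no test between conditions and no comparison with cells that lack the transgene or IL7. Read depth is unknown and the list gives neither heights nor expression, so the labelled cell type was not checked against its markers. A gene called here without a peak had none in the list, which does not show that STAT5 was absent from it.

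Cells commit to division when D-type cyclins, made in response to growth signals, activate Cdk4 and Cdk6. These kinases phosphorylate Rb and its relatives, which frees E2F factors to switch on the genes of later phases. Cyclin E with Cdk2 then starts DNA replication, and cyclins A and B with Cdk1 lead the cell into mitosis. Inhibitors of the Cip/Kip family (Cdkn1a, Cdkn1b, Cdkn1c) and of the INK4 family (Cdkn2a to Cdkn2d) hold the kinases back, and in B cell progenitors the IL7 receptor is known to couple growth signals to this machinery.

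STAT5 peaks were found at 14 of the 34 genes (41.2%), where 21.6% of all protein-coding genes had one and 22.3% was the share of genes of the same lengths. For the share by length, all protein-coding genes were split by length into 10 classes of equal size, and the shares with a peak in the members' own classes were averaged. By role, of the D cyclin and Cdk4/6 genes 4 of 5 had a peak, against 1 of 10 later-phase cyclin, Cdk and Cdc25 genes, 5 of 8 inhibitor genes, 3 of 8 E2F genes and 1 of 3 pocket protein genes. A peak inside the gene was rarer, at 5 of the 34, beside 9.85% of all protein-coding genes. This share was not matched for gene length. The 5 genes were 20.1 to 190.0 kb long, where the median of all protein-coding genes was 17.2 kb. When each peak was given only to the nearest protein-coding gene, 8 members (23.5%) had one, beside 14.2% of all protein-coding genes.

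**Figure D1:**
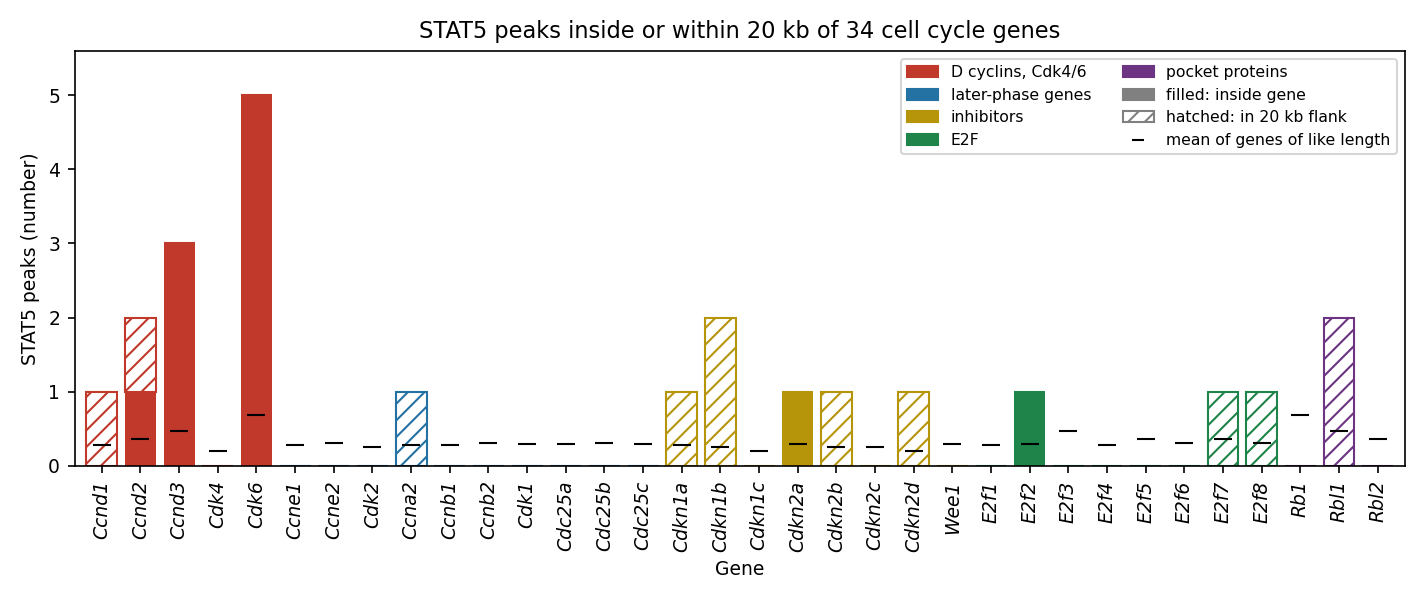
Number of STAT5 peaks (vertical axis) at each of the 34 genes, coloured by role. Filled bars are peaks inside the gene, hatched bars peaks in the 20 kb flanks, and the black dash is the mean of all protein-coding genes in the same of 10 classes of gene length. Cdk6 has 5 peaks and Ccnd3 has 3, all inside the genes. Of the 10 later-phase genes 1 has a peak, beside 21.0% of genes of their lengths.

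The order of the groups was not the order that gene length alone gave, in which the pocket protein genes came first and the inhibitors last. By length alone 1.25 of the 5 D cyclin and Cdk4/6 genes, 2.10 of the 10 later-phase genes and 1.47 of the 8 inhibitor genes would have had a peak. As shares, 80.0% of the D cyclin and Cdk4/6 genes had a peak beside 24.98% of genes of their lengths. For later-phase genes the share was 10.0% beside 21.0%, and for inhibitors 62.5% beside 18.4%. When each peak went to the nearest protein-coding gene only, 2 of the 8 inhibitors and 3 of the 5 D cyclin and Cdk4/6 genes had one. Of the 10 later-phase genes 0 had one, and of all protein-coding genes 14.2%. The inhibitor genes were the shortest group, with a median length of 5.50 kb against 13.0 kb for later-phase genes and 17.2 kb for all protein-coding genes. For E2F genes the share was 37.5% beside 23.4%, and for pocket protein genes 33.3% beside 29.7%. These groups hold 3 to 10 genes, so that 1 gene moves a share by 10 points or more, and no test of the differences was made.

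**Figure D2:**
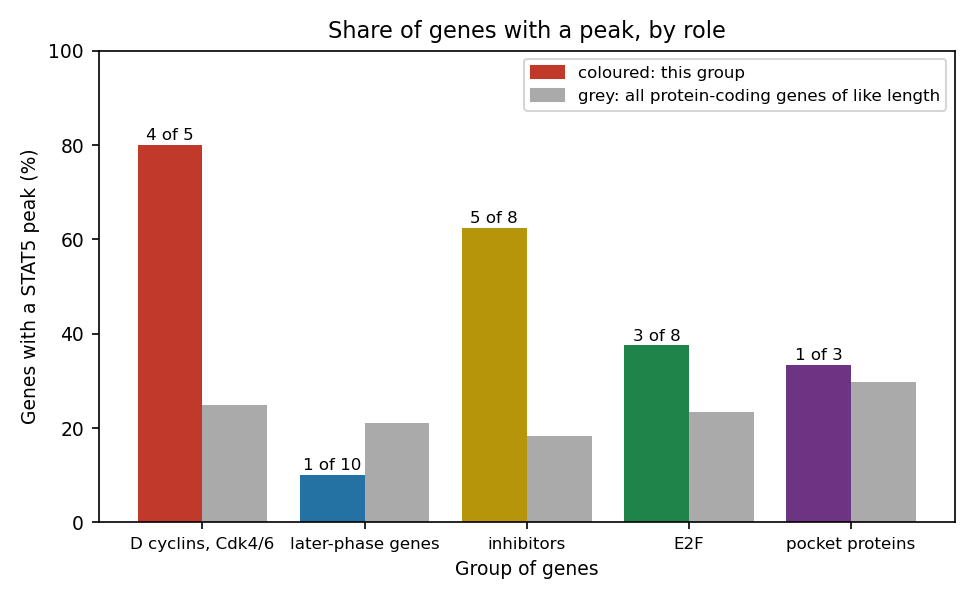
Percentage of genes with a STAT5 peak inside or within 20 kb (vertical axis) in the 5 groups. Coloured bars are the group, with its counts above, and grey bars the share of all protein-coding genes of like length. The D cyclin and Cdk4/6 genes (80.0%) and the inhibitors (62.5%) stand above their grey bars of 24.98% and 18.4%, and the later-phase genes (10.0%) below theirs of 21.0%.

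The median number of peaks per gene was 2 in the D cyclin and Cdk4/6 genes, 1 in the inhibitors and 0 in the other groups, as it was over all protein-coding genes. Peaks were also counted separately in gene bodies and flanks. Inside the D cyclin and Cdk4/6 genes there were 9 peaks in 0.325 Mb, or 27.7 per Mb, where all protein-coding genes held 3.01 per Mb. The flanks of these genes held 2 peaks, or 10.0 per Mb, beside 4.61 per Mb for all flanks. Later-phase genes had 0 peaks in 0.128 Mb of gene body and 1 in their flanks, 2.50 per Mb. Among inhibitor genes the peaks lay mostly outside: 1 peak lay inside a gene, while their flanks held 5 counts, 15.6 per Mb. The flank counts include the peak inside Cdkn2a, which was counted again for Cdkn2b. The E2F genes had 4.49 peaks per Mb of gene body and 6.25 per Mb of flank. The pocket protein genes had 0 peaks in 0.246 Mb of gene body and 2 in their flanks, 16.7 per Mb. At the 3.01 per Mb of all protein-coding genes, 0.128 or 0.246 Mb of gene body would hold less than a whole peak. In all, the 34 genes were served by 22 distinct peaks, 11 inside a member and 11 outside all members. Of the 11 outside, 6 lay nearer to another protein-coding gene, and 2 of these lay inside it.

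Cdk6, which encodes a kinase partner of the D cyclins, had 5 peaks, the most of the 34 genes. The gene spans 190.0 kb (chromosome 5, 3341004 to 3531008) and all 5 midpoints lay inside it. They fell between 117195 and 157947 bp downstream of its start in the RefSeq promoter table, within 41.1 kb. The first was the widest at 485 bp (3460846 to 3461330), and the next, 2.09 kb further on, measured 208 bp (3463074 to 3463281). The other 3 were 223 bp (3490447 to 3490669), 237 bp (3494803 to 3495039) and 250 bp (3501716 to 3501965) wide, so 4 of the 5 were narrower than the median of the list. No other protein-coding gene came closer than 41993 bp to any of them. Among the 2178 longest protein-coding genes, the class that holds Cdk6, 2.66% had 5 or more peaks. Cdk4, which encodes the other kinase of the pair and spans 3.75 kb, had no peak, and the nearest was 151.2 kb away.

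Ccnd3 encodes cyclin D3, the D cyclin known to be needed for the expansion of pre-B cells. It had 3 peaks, all inside the gene (chromosome 17, 47505051 to 47599689). The first lay 8544 bp downstream of the outer of 2 listed starts and was 255 bp wide (47513468 to 47513722). The second, 573 bp wide (47556855 to 47557427), lay 42548 bp from the nearer gene end. The third was 687 bp wide (47598241 to 47598927), the widest of all 22 peaks, and lay 5117 bp downstream of the inner start. Its midpoint was 1105 bp from the end of Ccnd3 and 747 bp from the neighbouring gene Bysl. The 3 peaks were spread over 85.5 kb, unlike the closely set peaks of Cdk6. In the length class of Ccnd3, 57.3 to 109 kb, 4.09% of genes had 3 or more peaks.

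Ccnd2, which encodes cyclin D2, had 2 peaks at 1 end of the gene (chromosome 6, 127125162 to 127152188). The first lay inside, 286 bp from the high-coordinate end, and was 374 bp wide (127151716 to 127152089). The second lay 2888 bp beyond that end and was 234 bp wide (127154960 to 127155193). Both also fell inside the long noncoding RNA gene 9330179D12Rik, which overlaps this end of Ccnd2, while the nearest other protein-coding gene, Tigar, was 42350 bp or more away. Of genes of its length class, 7.81% had 2 or more peaks. Ccnd1, which encodes cyclin D1, had 1 narrow peak of 212 bp (chromosome 7, 144928925 to 144929136), 901 bp outside the gene and inside its neighbour LTO1. It was thus not counted for Ccnd1 when a peak went only to the nearest gene. That left 3 of the 5 genes of this group, beside 14.2% of all protein-coding genes.

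**Figure D3:**
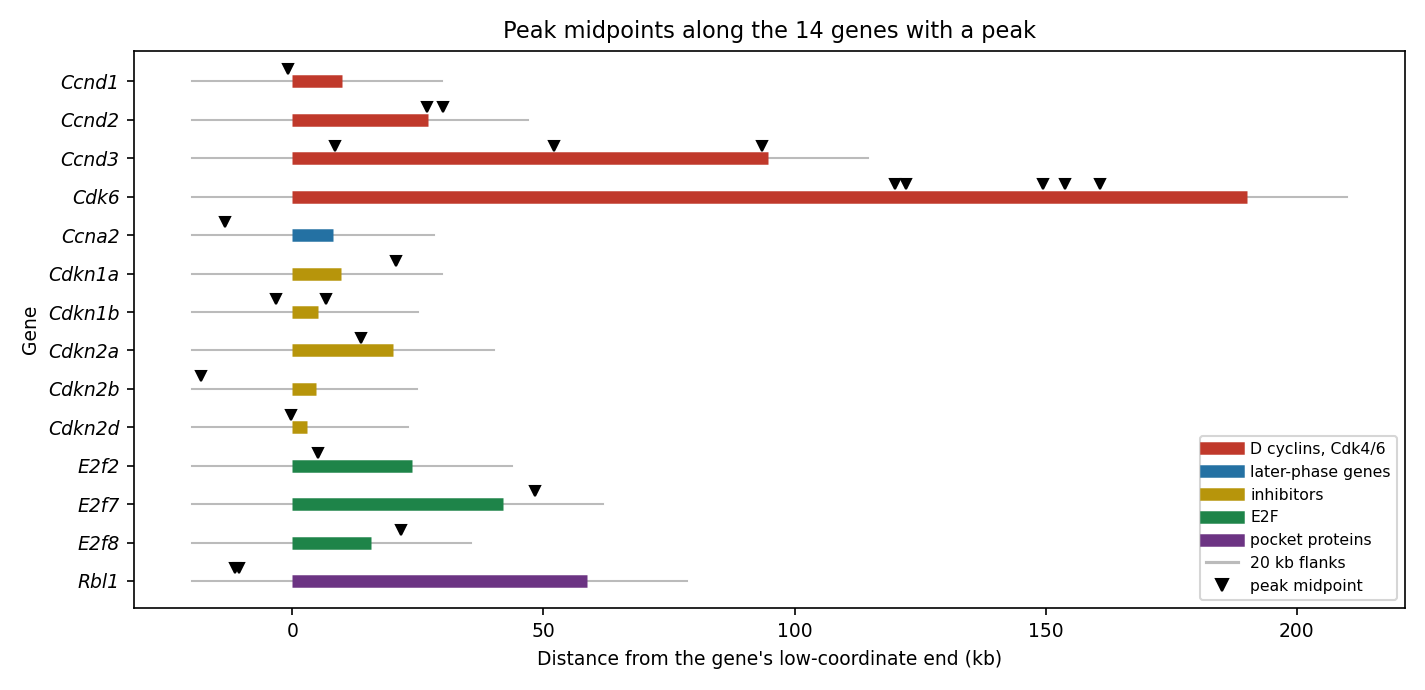
Midpoints of the peaks (black triangles) along the 14 genes with a peak, in kb from the low-coordinate end of each gene. Coloured bars are the genes, by role, and grey lines their 20 kb flanks. The 5 peaks of Cdk6 lie within 41.1 kb of the gene body, the 3 of Ccnd3 are spread over 85.5 kb, and the peaks of the inhibitor genes, apart from that of Cdkn2a, lie outside the genes.

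Among the inhibitors, Cdkn1b, which encodes p27, had 2 peaks, 1 on either side of the gene (chromosome 6, 134920401 to 134925525). The upstream peak was 491 bp wide (134916935 to 134917425) and lay 3221 bp before the start. The downstream peak was 625 bp wide (134926799 to 134927423) and lay 1586 bp past the end. No other protein-coding gene came closer than 18986 bp to either, and both were wider than the upper quartile of all peaks, 388 bp. In its length class, 4.22 to 7.43 kb, 4.55% of genes had 2 or more peaks. Cdkn1a, which encodes p21, had 1 peak of 504 bp (chromosome 17, 29111276 to 29111779), 10.8 kb downstream and 2601 bp from Rab44. Cdkn1c, which encodes p57, had none within 164.3 kb.

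Of the INK4 genes, Cdkn2a had 1 peak of 262 bp (chromosome 4, 89288006 to 89288267) inside the gene, between its 2 listed starts. That peak lay 18.2 kb downstream of Cdkn2b and was counted for it too, so the 2 genes rested on 1 peak. Cdkn2d had 1 peak of 194 bp (chromosome 9, 21288097 to 21288290), 1 bp above the narrowest of the whole list. Its midpoint lay 266 bp downstream of Cdkn2d and 224 bp from Kri1. Cdkn2c, which encodes p18, was farthest from any peak of all 34 genes, at 1676 kb. Wee1, the kinase that holds Cdk1 inactive, had its nearest peak just outside the limit, at 23.1 kb. Of the inhibitor genes 2 of 8, Cdkn1b and Cdkn2a, kept a peak when each went to the nearest gene only. Under that setting 14.2% of all protein-coding genes had one.

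Of the 10 later-phase genes 1 had a peak, where 2.10 would have had one by length, so that this count lay near the background. It was Ccna2, which encodes cyclin A2, with 1 peak of 227 bp (chromosome 3, 36551275 to 36551501) 13.5 kb from the gene and 1218 bp from Exosc9. Ccne1 and Ccne2, the cyclin E genes that act with Cdk2 at the start of replication, had their nearest peaks at 79.3 and 215.1 kb. For Cdk2 itself the nearest was 39.9 kb away. The mitotic genes Cdk1, Ccnb2 and Ccnb1 were 89.7, 120.9 and 933.1 kb from a peak. The genes of the Cdc25 phosphatases, which remove the inhibitory phosphates from Cdks, were 178.4 kb (Cdc25a), 35.2 kb (Cdc25b) and 108.3 kb (Cdc25c) away. The median distance of this group was 99.0 kb, near that of all protein-coding genes on chromosomes with a peak (117.6 kb, quartiles 27.3 and 376.2 kb). Inhibitor genes had a median distance of 14.5 kb and E2F genes one of 31.2 kb. For the D cyclin and Cdk4/6 genes the median was 0 kb, as 3 of the 5 held a peak, beside 9.85% of all protein-coding genes. The distances and this share were not matched for gene length.

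**Figure D4:**
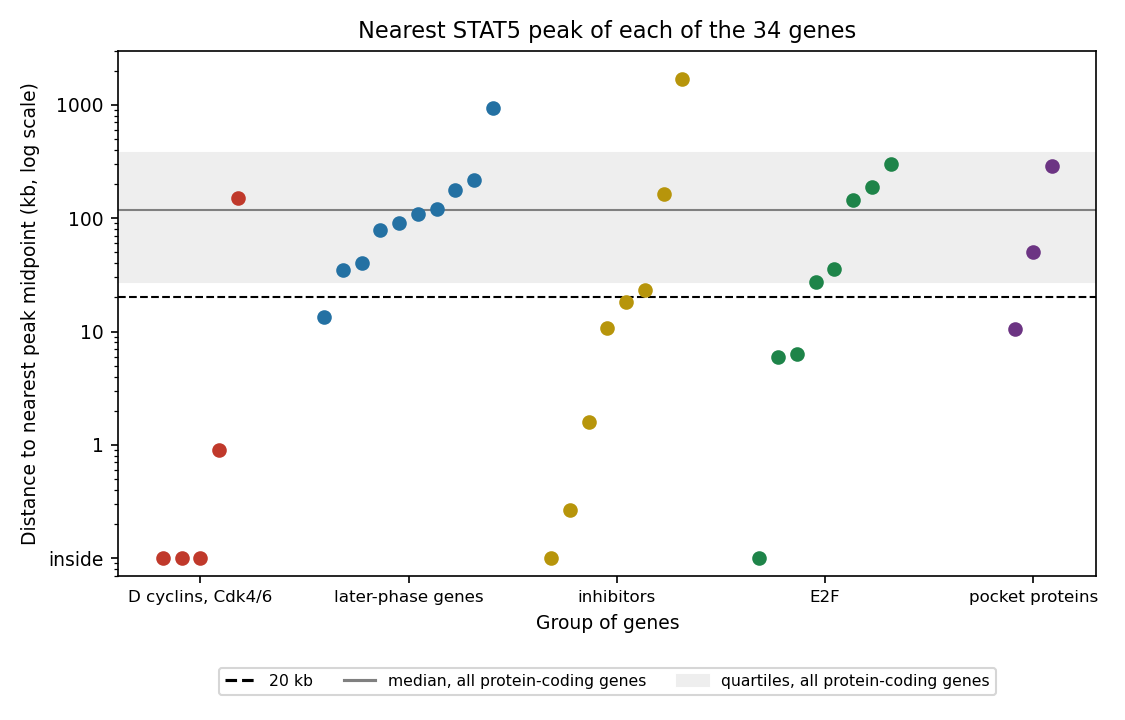
Distance from each of the 34 genes to its nearest peak midpoint (vertical axis, kb, log scale), by role. Genes that hold a midpoint are drawn at the level marked inside, and the dashed line is 20 kb. The grey line and band are the median and quartiles of the 21523 protein-coding genes on chromosomes with a peak. Later-phase genes lie from 13.5 to 933.1 kb, and Cdk4 is the D cyclin and Cdk4/6 gene far from a peak.

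E2F genes had 3 peaks, 1 each at 3 of 8. E2f2, which encodes an activator of the family, had a peak of 337 bp inside the gene (chromosome 4, 136177123 to 136177459). The repressors E2f7 and E2f8 had 1 each outside the gene: 468 bp wide and 6.34 kb downstream of E2f7 (chromosome 10, 110793495 to 110793962), and 376 bp wide and 6.01 kb upstream of E2f8 (chromosome 7, 48887895 to 48888270). All 3 peaks were wider than the median of the list and had no nearer protein-coding gene. The activators E2f1 and E2f3 lay 186.7 and 145.0 kb from a peak, and E2f4, E2f5 and E2f6 27.2, 35.3 and 301.3 kb. Of the pocket protein genes, Rb1 and Rbl2 had none within 49.98 and 290.3 kb. Rbl1, which encodes p107, had 2, of 369 bp (chromosome 2, 157134352 to 157134720) and 325 bp (157135143 to 157135467), set 0.769 kb apart. These lay 11.4 and 10.6 kb downstream of Rbl1 at Samhd1, the first inside that gene and the second 209 bp from it. In the length class of Rbl1, 57.3 to 109 kb, 10.4% of genes had 2 or more peaks.

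The limit of 20 kb divided genes that were close to each other in distance. Just inside it were Ccna2 at 13.5 kb and Cdkn2b at 18.2 kb, and just outside Wee1 at 23.1 kb, E2f4 at 27.2 kb and Cdc25b at 35.2 kb. With flanks of 50 kb, 20 of the 34 genes had a peak, beside 33% of all protein-coding genes. The 6 genes gained were Cdk2 with 3 peaks, Wee1 and E2f4 with 2 each, and Cdc25b, E2f5 and Rb1 with 1 each. No gene of the D cyclin group was gained, while 3 of 10 later-phase genes then had a peak, a share close to that of all protein-coding genes.

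Sequence could be shown for 2 of the 22 peaks, because the RefSeq promoter windows (GRCm38.p6, 250 bases before to 50 after a start) of neighbouring genes overlap them. Both are peaks counted for a member but lying at another gene's start, and the shared bases before that start are printed 5′ to 3′ on the minus strand, the strand of the neighbour. Capitals mark the STAT recognition form TTCNNNGAA, called the GAS motif, which reads the same on both strands.
Samhd1 start, in the second Rbl1 peak, chr2:157135143-157135346: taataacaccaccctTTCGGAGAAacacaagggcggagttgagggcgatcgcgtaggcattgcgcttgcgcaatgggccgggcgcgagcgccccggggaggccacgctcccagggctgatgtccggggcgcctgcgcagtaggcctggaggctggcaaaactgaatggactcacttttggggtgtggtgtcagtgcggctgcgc
Kri1 start, in the Cdkn2d peak, chr9:21288097-21288219: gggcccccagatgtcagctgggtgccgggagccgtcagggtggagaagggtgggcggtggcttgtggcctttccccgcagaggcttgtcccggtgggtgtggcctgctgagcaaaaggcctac
The Samhd1 stretch held 1 GAS motif, 231 bp before the start of Samhd1 and 22 bp from the midpoint of the peak. The Kri1 stretch of 123 bases held none. Among all RefSeq promoter windows 8.30% held the motif, and among those of protein-coding genes 7.69%. These are shares of whole windows, which are longer than the 2 stretches and reach past the start.

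No peak overlapped any of the 30 promoter windows listed for 24 of the members, the windows of Ccnd1 and Ccnd2 not being among them. None of the 30 held a GAS motif, which says only that these letters are not in these windows. Of the binding forms of E2F, 8 of 30 windows (26.7%) held TTTGGCGC, TTTCCCGC, TTTCGCGC or TTTGCCGC on either strand, beside 2.85% of the windows of protein-coding genes. The member windows were also richer in G and C, with a median of 64.7% against 56.3%, and the part of this in the difference was not tested. By role, the E2F forms were in 3 of 7 windows of later-phase genes, 3 of 8 of E2F genes, 1 of 9 of inhibitors, 1 of 2 of pocket proteins and 0 of 4 of Ccnd3, Cdk4 and Cdk6. The matches of the 3 later-phase genes and of Rbl1 are shown with the match in capitals, 5′ to 3′ on the strand of the gene.
Cdk1, minus strand, chr10:69353025-69353054: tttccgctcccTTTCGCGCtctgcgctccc
Cdk2, minus strand, chr10:128705173-128705202: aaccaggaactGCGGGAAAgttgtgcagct
Cdc25a, plus strand, chr9:109875501-109875530: ggtgaattccgTTTGGCGCcaactaggaaa
Rbl1, minus strand, chr2:157204534-157204563: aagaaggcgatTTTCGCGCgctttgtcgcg
The match in Cdk2 is the reverse complement of a listed form, and the other 3 read forward. They begin 131 bp (Cdk1), 140 bp (Cdk2), 67 bp (Cdc25a) and 18 bp (Rbl1) before the start. The other 4 windows with a match were those of Cdkn2a, E2f2, E2f3 and E2f7. Of the genes with a match, Cdkn2a, E2f2, E2f7 and Rbl1 had a STAT5 peak inside or within 20 kb, those of Rbl1 lying nearer to Samhd1. Cdk1, Cdk2, Cdc25a and E2f3 had none. Of all 34 members 41.2% had a peak, and of all protein-coding genes 21.6%. A link between match and peak was not tested.

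Other cell cycle genes were counted in 5 lists, of which Fzr1 is in 2. Partners of E2F and the MuvB and MYB proteins had one at 4 of 11 genes (36.4%, beside 26.0% for genes of their lengths), among them Foxm1 and Lin52 with 2 each and Myb and Mybl2 with 1 each. Other cyclins, Cdks and their partners had one at 9 of 23 (39.1% beside 24.8%), with 2 each at Cdk8 and Ccng2. Replication origin genes had one at 3 of 20 (15.0% beside 22.7%): Orc4, Cdc6 and Mcm6. Mitosis genes had one at 6 of 21 (28.6% beside 22.8%), among them Aurkb, Cdc20 and Birc5. Ubiquitin ligase and checkpoint genes had one at 3 of 16 (18.8% beside 25.3%). Of these, Btrc, which encodes a substrate receptor of an SCF ubiquitin ligase, had 3 peaks, the most in any of the 5 lists. Peaks per Mb of gene and flanks ran from 2.33 for replication origin genes to 6.38 for the partners of E2F, where all protein-coding genes had 3.74. Among the members it was 20.9 for the D cyclin and Cdk4/6 genes and 15.3 for the inhibitors. The inhibitor value counts the peak shared by Cdkn2a and Cdkn2b for both genes. It was 5.53 for the E2F genes, 5.47 for the pocket protein genes and 1.90 for the later-phase genes.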

How the data were processed

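The authors deposited 1 list of peak positions, with start and end in bp, and no other value. Build mm10 and the tools MACS2, Picard and BWA 0.7.4 are listed, per the submitters' processing notes, with no role stated. On threshold, filters and use of the input the sources used here say nothing, and depth is unknown. Starts were counted from 1. Gene positions came from an NCBI RefSeq table of GRCm38.p6, the coordinates of mm10. Genes that start below 3000000 bp on any chromosome but Y were left out as lying on unplaced sequences. Each of 21779 protein-coding genes was given its peaks by midpoint, with flanks of 20 kb, and placed in 1 of 10 equal classes of gene length. Python 3.11.15 with pandas 2.3.3 was used, and the counter was checked on simulated peaks. The members and the lists were chosen with earlier results of these data known, and all members are named. From the other lists, genes with 3 or more peaks were to be named, and the others named there were chosen after their values were seen. With 1 library no test was run. There were 8 alternatives: other flanks, any overlap, fewer peaks, joined peaks and the nearest gene only. Promoter windows came from RefSeq.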

Additional observations from a re-analysis of the deposited data

How the results depend on the processing

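Of 56 recomputed counts, 29 stayed within 1.5 times the reported value over 8 alternatives. The 29 include every count under any overlap of 1 bp and with joined peaks, settings close to the main one. No paired analysis was possible because there was 1 peak list. The D cyclin and Cdk4/6 genes with a peak stayed at 3 or 4 of 5 in all 8. Each of the other counts moved further in some settings and not in others. The counts follow, with the share of all protein-coding genes under the same setting in brackets. With peaks inside the gene only (9.85%), 5 members had a peak, 0 later-phase, 1 inhibitor, 1 E2F and 0 pocket protein genes, from 11 distinct peaks. With flanks of 5 kb (14.3%) there were 8 members, 0 later-phase, 3 inhibitor, 1 E2F and 0 pocket protein genes, from 16 distinct peaks. With flanks of 50 kb (33%) there were 20 members, 3 later-phase, 6 inhibitor, 5 E2F and 2 pocket protein genes, from 45 distinct peaks. The key of the deposited order is not given. In its first 2954 peaks (12.2%) there were 8 members, 0 later-phase, 2 inhibitor, 2 E2F and 1 pocket protein genes, from 13 peaks. In the 2958 widest peaks (12.2%) there were 9 members, 0 later-phase, 2 inhibitor, 3 E2F and 1 pocket protein genes, from 12 peaks. With each peak given to the nearest protein-coding gene only (14.2%), there were 8 members from 16 distinct peaks. These were 0 later-phase, 2 inhibitor, 3 E2F and 0 pocket protein genes, beside the D cyclin and Cdk4/6 genes. Smaller windows and fewer peaks lower these counts, and the shares of all genes, by construction. Any overlap of 1 bp changed no count, and joining peaks closer than 1 kb left 21 distinct peaks.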
